A study of Rattus norvegicus with 32 samples.

Results

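The cholesterol synthesis and uptake genes are 30 genes that make cholesterol, sense it, move it through the cell and pass it out or take it in. They were found by gene symbol among the probe sets of a rat expression array, and 28 of the 30 were measured. A probe set, the group of short probes that reads 1 transcript, was kept where its intensity was 10 or more on every array used, and where several were kept for a gene, the brightest on average (log2) was taken. Of 21068 probe sets that passed, 48 belonged to these genes and 15 genes had more than 1. Hmgcs1 and Npc1 were not paired with a probe set and were not analysed here.

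The 31 rats were adult, virgin, untreated female Sprague Dawley rats on standard chow, with regular 4-day estrous cycles, and each gave 1 mammary gland sample at 1 time point. Time runs in hours after midnight of the first cycle day, and estrus falls on day 2. Day 1 had 8 rats (7 to 17.6 h), day 2 had 8 rats (31.6 to 43 h), day 3 had 8 rats (57 to 67.1 h) and day 4 had 7 rats (79.3 to 88.1 h). No time point had a second rat, so the spread comes from rats of the same day at other clock hours, and a p-value measures differences between days or hours against that spread.

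The glands were taken whole, without their lymph nodes, so fat, epithelium, vessels, immune cells and muscle all added RNA, and fewer cells of a type cannot be told apart from less RNA per cell. Markers of fat and of epithelium were present, with geometric mean intensities of 123 to 20600 over 12 of 13 adipocyte markers, 173 to 5080 over 14 of 15 luminal markers and 113 to 2820 over 10 of 10 basal markers. The mean of 6 measured skeletal muscle markers spanned -4.31 to 2.41 (log2, centred per gene) over the rats, and that of 6 lymphocyte markers spanned -0.66 to 2.47. Array medians lay between 49.9 and 54.7.

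Cells build cholesterol from acetyl-CoA. The first steps give mevalonate and isoprenoids, and squalene is then closed into a ring and trimmed to cholesterol. When membrane cholesterol is low, SCAP carries the transcription factor SREBP-2 (Srebf2) to the Golgi, where it is cut and released to switch on most synthesis enzymes. INSIG proteins hold SCAP back when sterols are plentiful. High sterols instead activate LXR, which raises the exporters Abca1 and Abcg1 and the ubiquitin ligase Mylip, which removes the LDL receptor. The mammary gland makes lipid both in its fat and in its epithelium, whose milk carries cholesterol.

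Measured members were 7 enzymes of the mevalonate and isoprenoid steps, 11 enzymes from squalene to cholesterol and 4 genes of sterol sensing. There were also 2 genes of transport inside the cell, and 4 of efflux, HDL exchange and LDL receptor removal. Over the 31 rats the highest value was under 2 times the lowest for 12 members, 2 to 4 times for 13 and more for 3. It was 1.47 times the lowest for Insig2 and 1.60 times for Npc2, a carrier of cholesterol in the lysosome. Among the mevalonate and isoprenoid enzymes Mvk ran from 41.3 to 87.0 over the 31 rats, and Mvd, the decarboxylase that makes isopentenyl diphosphate, from 12.3 to 28.3, near the filter of 10. Of the later enzymes Fdft1 ran from 128 to 269.6, Sqle from 35.9 to 123, Lss from 137 to 264, Lbr, a sterol reductase of the nuclear envelope, from 83.8 to 217, and Msmo1 from 187 to 383. Nsdhl ran from 156 to 348, Hsd17b7 from 42.7 to 153, Ebp, the sterol isomerase, from 166 to 284, and Sc5d, the sterol desaturase, from 115 to 190.3. Acat2 ran from 64.6 to 248, Ggps1 from 85.3 to 158, Cyp51 from 350.3 to 572, Stard4 from 85.6 to 152 and Scarb1 from 911 to 2130. The highest rat was 5.90 times the lowest for Insig1, 10.1 times for Abca1 and 41.1 times for Idi1.

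**Figure D1:**
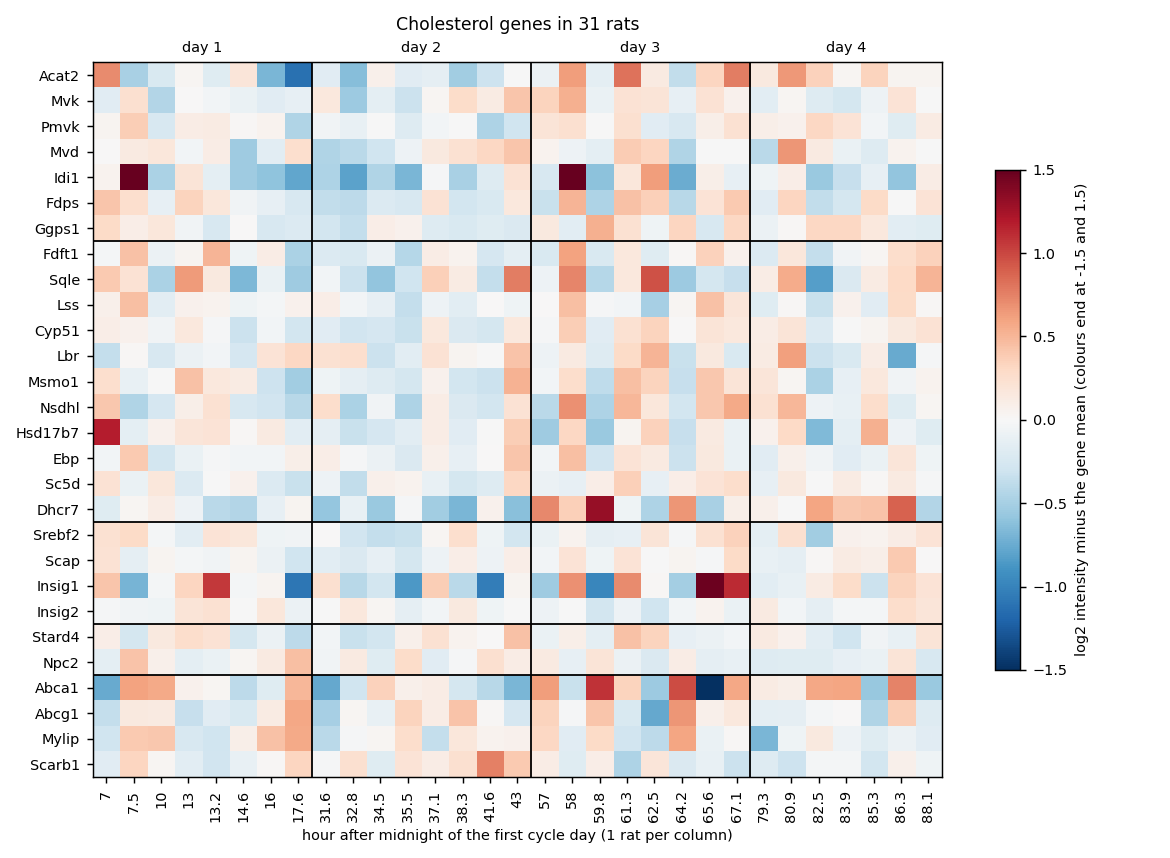
Log2 intensity of 28 cholesterol genes, centred per gene, with 1 column for each of 31 rats in order of time and 1 row for each gene in order of role. Idi1 stands out in the rats of 7.5 and 58 h, and the rows of the synthesis enzymes share many light and dark columns, while Dhcr7 and Abca1 have their own.

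None of the 28 genes passed an adjusted p of 0.05 for clock hour or between any pair of days (limma moderated test with Benjamini-Hochberg adjustment over all 21068 probe sets). The background was 1.96% of all probe sets for clock hour, 0.00475% for day 2 against day 1, 1.12% for day 3 against day 1, 0.0237% for day 4 against day 1, 0.271% for day 3 against day 2, 0.0427% for day 4 against day 2 and 0% for day 4 against day 3. At an unadjusted p under 0.05, 1 gene was found for clock hour, 0 for day 2 against day 1, 4 for day 3 against day 1, 2 for day 4 against day 1, 6 for day 3 against day 2, 5 for day 4 against day 2 and 1 for day 4 against day 3. As shares of 28 genes and of all probe sets, the 6 genes for day 3 against day 2 are 21.4% beside 12.7%, the 5 for day 4 against day 2 are 17.9% beside 7.48%, the 4 for day 3 against day 1 are 14.3% beside 13.8%, and the 2 for day 4 against day 1 are 7.14% beside 6.47%. The 1 gene each for clock hour and for day 4 against day 3 is 3.57%, beside 12.6% and 5.79%, and the 0 genes for day 2 against day 1 stand beside 5.78%.

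Day 3 against day 2 held the lowest p-values. Dhcr7, which makes cholesterol from 7-dehydrocholesterol in the last step, ran from 462 to 1605 on day 3 (median 762), against 403 to 681 on day 2 (median 447). The ranges overlapped, and 5 of the 8 rats of day 3 lay above every rat of day 2. Its log2 change was 0.67 (SE 0.20, limma adjusted p = 0.152). With arrays weighted by their quality the change was 0.82 (SE 0.19) and limma's adjusted p was 0.0323. In that fit 1 of the 28 genes passed, beside 1.85% of all probe sets. The part of RNA integrity in the day differences of Dhcr7 and of Ggps1 was not tested.

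Scarb1, the HDL receptor, fell on day 3 by 1 of its 2 probe sets. That probe set read 596 to 950 on day 3 (median 823), against 876 to 1778 on day 2 (median 1076), so that the groups overlapped in a narrow range. Its log2 change was -0.55 (SE 0.11, limma adjusted p = 0.0294). This was the only 1 of 48 probe sets of these genes past the threshold in this comparison, beside 57 of all 21068 (0.271%). The brighter probe set, taken by the rule, read 911 to 1428 on day 3 (median 1136), against 1105 to 2130 on day 2 (median 1468). Its log2 change was -0.35 (SE 0.11, limma adjusted p = 0.189), and r between the 2 probe sets over 31 rats was 0.81. The highest Scarb1 of the series was in the rat of 41.6 h on day 2.

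Cyp51, which removes a methyl group from lanosterol, ran from 395 to 572 on day 3 (median 499), against 350.3 to 495 on day 2 (median 376). Its log2 change was 0.28 (SE 0.09, limma adjusted p = 0.191). A dimmer probe set of Cyp51 read 123 to 185 on day 3 (median 144), against 95.2 to 129 on day 2 (median 108), with a log2 change of 0.44 (SE 0.11, limma adjusted p = 0.0917). Neither passed the threshold, and in both the groups overlapped.

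Acat2, the cytosolic thiolase that joins the first acetyl-CoA units, ran from 109 to 248 on day 3 (median 165), against 90.7 to 148 on day 2 (median 125). Its log2 change was 0.52 (SE 0.19, limma adjusted p = 0.244). Against day 1, whose rats ran from 64.6 to 231 (median 122), the change on day 3 was also 0.52 (SE 0.19, limma adjusted p = 0.213). The lowest rat of day 1 was that of 17.6 h and the highest that of 7 h.

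Ggps1, which makes geranylgeranyl diphosphate on a side branch, read 92.6 to 158 on day 3 (median 124), against 85.3 to 117 on day 2 (median 94.5), a log2 change of 0.31 (SE 0.10, limma adjusted p = 0.202). Pmvk, the second mevalonate kinase, read 257 to 361 on day 3 (median 335), against 220.5 to 304 on day 2 (median 287), a log2 change of 0.24 (SE 0.09, limma adjusted p = 0.253). Both sets of groups overlapped. Idi1 had the largest estimate, 0.72 (SE 0.50), which was 0.34 without the rat of 58 h and 0.23 (SE 0.19) without the rats of 7.5 and 58 h, below that of Dhcr7. The smallest belonged to Ebp and Mvd, both 0.00, with 95% intervals of -0.21 to 0.21 for Ebp and -0.29 to 0.30 for Mvd.

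Estimates of the synthesis enzymes mostly had the same sign. For day 3 against day 2, 16 of 18 synthesis enzymes had a positive estimate, with a median log2 change of 0.20, beside -0.03 over all probe sets. Of all 21068 probe sets 9018 had a positive estimate. The 7 mevalonate and isoprenoid enzymes all had positive estimates, and so did 9 of 11 enzymes from squalene to cholesterol. None of these estimates passed the adjusted threshold, and Lbr (-0.06) and Hsd17b7 (-0.02) had the other sign. For day 2 against day 1 the synthesis enzymes leaned the other way, with 13 of 18 negative, beside 9520 of all 21068 probe sets. Since both comparisons use the same rats of day 2, these counts are not independent of each other. The enzymes also varied together over the same arrays, so the signs within a count are not independent either.

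**Figure D2:**
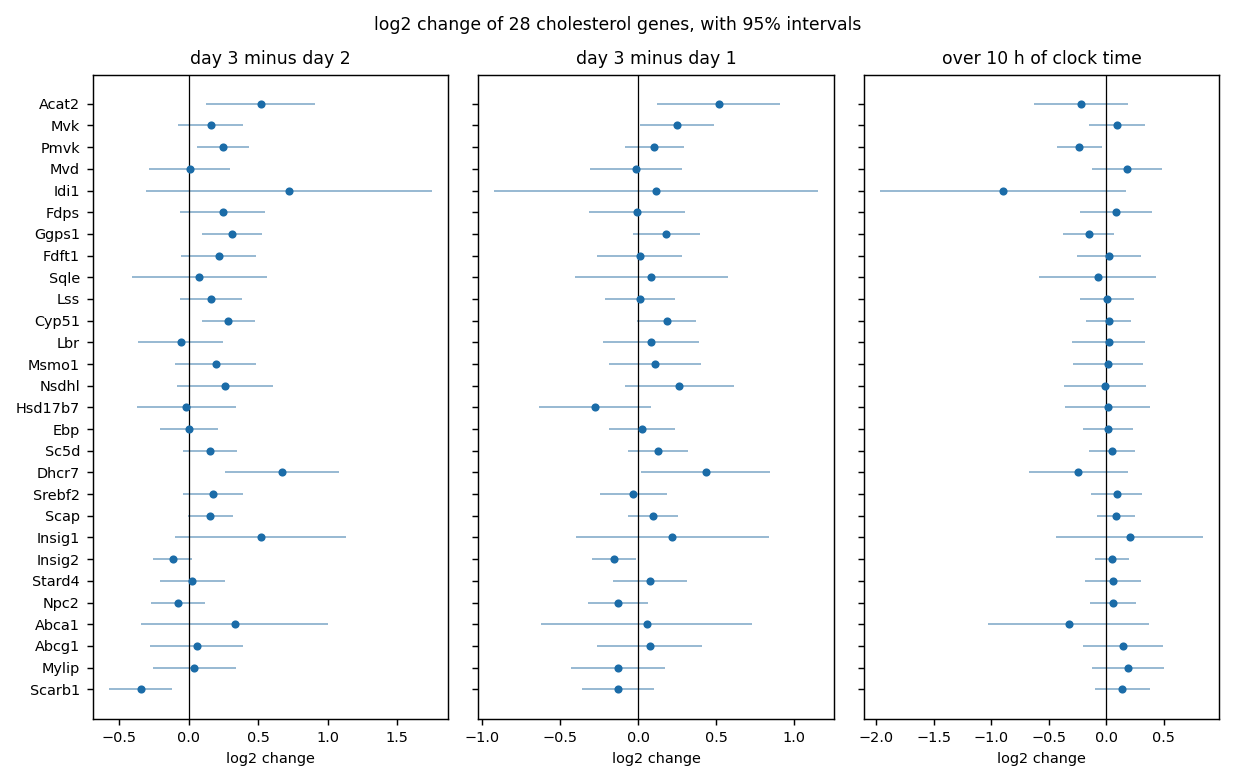
Log2 change of 28 cholesterol genes on day 3 minus day 2, on day 3 minus day 1 and over 10 h of clock time, with points for the limma estimates and bars for 95% intervals before any adjustment. Most points of the left panel lie right of 0, with Dhcr7 at 0.67 and Scarb1 at -0.35 clear of it, and the bar of Idi1 is the widest in each panel.

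Cell type markers differed between these days as well. For day 3 against day 2 at an unadjusted p under 0.05, 5 of 7 endothelial markers were lower, 5 of 14 luminal markers were higher, and of 10 basal markers 5 were higher and 1 was lower. Of 6 lymphocyte markers 3 were higher, with a median log2 change of 0.82 over the list, and of 12 adipocyte markers 1 was higher and 2 were lower, with 10 estimates negative. None of them passed the adjusted threshold. Of all 21068 probe sets 1033 were higher and 1643 lower at the same unadjusted p, and 12050 had a negative estimate. The lymphocyte mean ran from -0.55 to 2.05 on day 3, against -0.58 to -0.08 on day 2. The mean of the endothelial markers ran from -0.36 to 0.02 on day 3, against -0.03 to 0.32 on day 2 (log2, centred per gene), and that of the luminal markers ran from -0.49 to 0.37 on day 3, against -0.41 to 0.22 on day 2. Their part in the results was not tested for the endothelial and basal lists. With fat, luminal, lymphocyte and muscle marker means as covariates the change was 0.59 for Dhcr7 (SE 0.18) and 0.59 for Acat2 (SE 0.19), beside 0.67 and 0.52 without them.

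For day 4 against day 2 the 5 genes at an unadjusted p under 0.05 were Dhcr7, Scarb1, Cyp51, Acat2 and Pmvk. Dhcr7 ran from 480.4 to 1201 on day 4 (median 862), a log2 change of 0.63 over day 2 (SE 0.21, limma adjusted p = 0.416). Scarb1 changed by -0.32 (SE 0.12), Acat2 by 0.44 (SE 0.20), Cyp51 by 0.22 (SE 0.10) and Pmvk by 0.20 (SE 0.09), with limma adjusted p-values of 0.505 to 0.647. Insig1, which holds SCAP in the endoplasmic reticulum, had an estimate of 0.36 (SE 0.31, limma adjusted p = 0.848). Stard4 and Insig2 had the smallest, -0.04 and 0.04. Day 3 and day 4 are both set against the same 8 rats of day 2.

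Against day 1, Acat2 had an estimate of 0.44 on day 4 (SE 0.20, limma adjusted p = 0.723) and Dhcr7 one of 0.39 (SE 0.21, limma adjusted p = 0.818). On day 3 the estimate of Dhcr7 over day 1 was 0.43 (SE 0.20, limma adjusted p = 0.337). Mvk, the first mevalonate kinase, had 0.25 (SE 0.12) and Insig2, the second INSIG, had -0.15 (SE 0.07), with limma adjusted p-values of 0.330 and 0.316. Fdps and Fdft1, which lead up to squalene, had -0.01 and 0.01. Hsd17b7, a sterol ketone reductase, had -0.28 (SE 0.18, limma adjusted p = 0.502). Its highest rat, at 153 in the rat of 7 h, was on day 1, where the other 7 rats lay between 60.6 and 78.2.

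Npc2 read 4160 to 5604 on day 4 (median 4325), against 4407 to 6669 on day 1 (median 5074), with a log2 change of -0.20 (SE 0.10, limma adjusted p = 0.756). The groups overlapped. For day 4 against day 3 the largest estimates were -0.67 in Idi1 (SE 0.53; -0.26 without the rat of 58 h and -0.07 without those of 7.5 and 58 h), -0.21 in Mvk (SE 0.12) and 0.16 in Insig2 (SE 0.07), and the smallest were -0.00 in Scap and 0.02 in Abca1. For day 2 against day 1 the largest were -0.61 in Idi1 (SE 0.50), -0.30 in Insig1 (SE 0.30) and -0.28 in Abca1 (SE 0.33), and Acat2 and Nsdhl had -0.00 and 0.01. Limma adjusted p-values of these 10 estimates were 0.846 or more.

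Clock hour was fitted together with day, and its change is given per 10 h. Pmvk ran from 220.5 to 361 in the 17 rats sampled after noon (median 304), against 257 to 393 in the 14 rats sampled before noon (median 316). Its slope was -0.23 (SE 0.10, limma adjusted p = 0.262), the only member slope with an unadjusted p under 0.05. Abca1 had a slope of -0.33 (SE 0.34), Dhcr7 one of -0.24 (SE 0.21) and Idi1 one of -0.90 (SE 0.52), with limma adjusted p-values of 0.498 to 0.747. Lss and Nsdhl had 0.00 (95% interval -0.23 to 0.24) and -0.01 (95% interval -0.37 to 0.35). The slope of Idi1 turned to 0.09 (SE 0.20) without the rats of 7.5 and 58 h. Synthesis enzymes as a list stood at a median slope of 0.01, beside 0.02 over all probe sets. Their slopes were positive in 11 of 18, beside 11510 of all 21068 probe sets.

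Slopes that differ between days were tested with an interaction of day and clock hour. No member passed (limma smallest adjusted p = 0.9999), and 1 member, Mvd, had an unadjusted p under 0.05, 3.57% of members beside 3.56% of all probe sets. Over any day difference, a moderated F test of the 4 days together, none passed an adjusted p of 0.05, beside 0.574% of all probe sets. At an unadjusted p under 0.05 there were 5 members, Dhcr7, Acat2, Scarb1, Cyp51 and Ggps1, which is 17.9% of members beside 10.9% of all probe sets.

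The study's own method, called Method 1 there, asks how much of a gene's variance is taken up by a curve of straight segments over the 4 days. Each share is ranked among those of all probe sets after 1 fixed reordering that moves neighbouring time points apart. Method 1 called 2 of 28 members at a false discovery rate of 0.25, where the background was 9.06% of all probe sets. These were Scarb1, in which the curve took a share of 0.485 of the variance (adjusted p = 0.162), and Scap, with 0.467 (adjusted p = 0.208). Scap had medians of 242, 231, 252 and 250.5 over days 1 to 4, and its rats ran from 202 (day 1) to 326 (day 4). The next were Acat2 at 0.437, Cyp51 at 0.432, Dhcr7 at 0.428 and Mvk at 0.411. The median share was 0.261 over members and 0.248 over all probe sets. Leaving out 1 rat at a time gave 0 to 4 members, and the share of all probe sets called moved as well. Without the rat of 7.5 h there were 4 (Acat2, Mvk, Scap and Scarb1), and without the rat of 41.6 h there were also 4 (Acat2, Cyp51, Dhcr7 and Scap). Of all probe sets 2709 were called in the run without the rat of 7.5 h and 2318 in that without the rat of 41.6 h, beside 1908 with all 31 rats. In 9 of the 31 runs there were 0, those without the rat of 16, 35.5, 43, 57, 59.8, 67.1, 80.9, 83.9 or 85.3 h, and in those runs 3.16% to 7.02% of all probe sets were called.

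Idi1, the isomerase that makes dimethylallyl diphosphate, differed from all other members. It read 7772 in the rat of 7.5 h and 2474 in the rat of 58 h, against 189 to 508 in the other 29 rats. A second probe set of Idi1 read 3351 and 804 in those 2 rats, against 75.2 to 192 in the other 29. In both readings the 2 rats lay far above every other rat, of any day or hour. Lss, which closes the sterol ring, was also highest in these rats, at 263.4 and 264.5, against 137 to 262.9 in the others, a narrow margin. No other member had both of these rats above the other 29. Over all probe sets 34 did so, or 0.161%.

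Genes of scent and sebaceous glands and of skin were high in the same 2 rats, a list chosen after their values were seen. Mup5, a scent carrier protein, read 11817 and 4256 in the rats of 7.5 and 58 h, against 6.62 to 425 in the 28 rats left when the rat of 7 h is set aside too. Gusb, the lysosomal beta-glucuronidase that is abundant in the rodent preputial gland, read 6354 and 1449, against 438 to 674. Cyp2b12, a cytochrome of rat sebaceous glands, read 976 and 184, against 4.33 to 5.69. Among the skin genes Krt6c read 204 and 66.9, against 7.77 to 22.2, while Krt1 and Krt10, keratins of the upper epidermis, read 6.64 and 127 in the rat of 7.5 h, within the range of the 28. The rat of 7 h had Krt1 at 84.8 and Krt10 at 1033, and it had the highest Hsd17b7. The part of such tissue in the Idi1 and Hsd17b7 values was not tested.

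**Figure D3:**
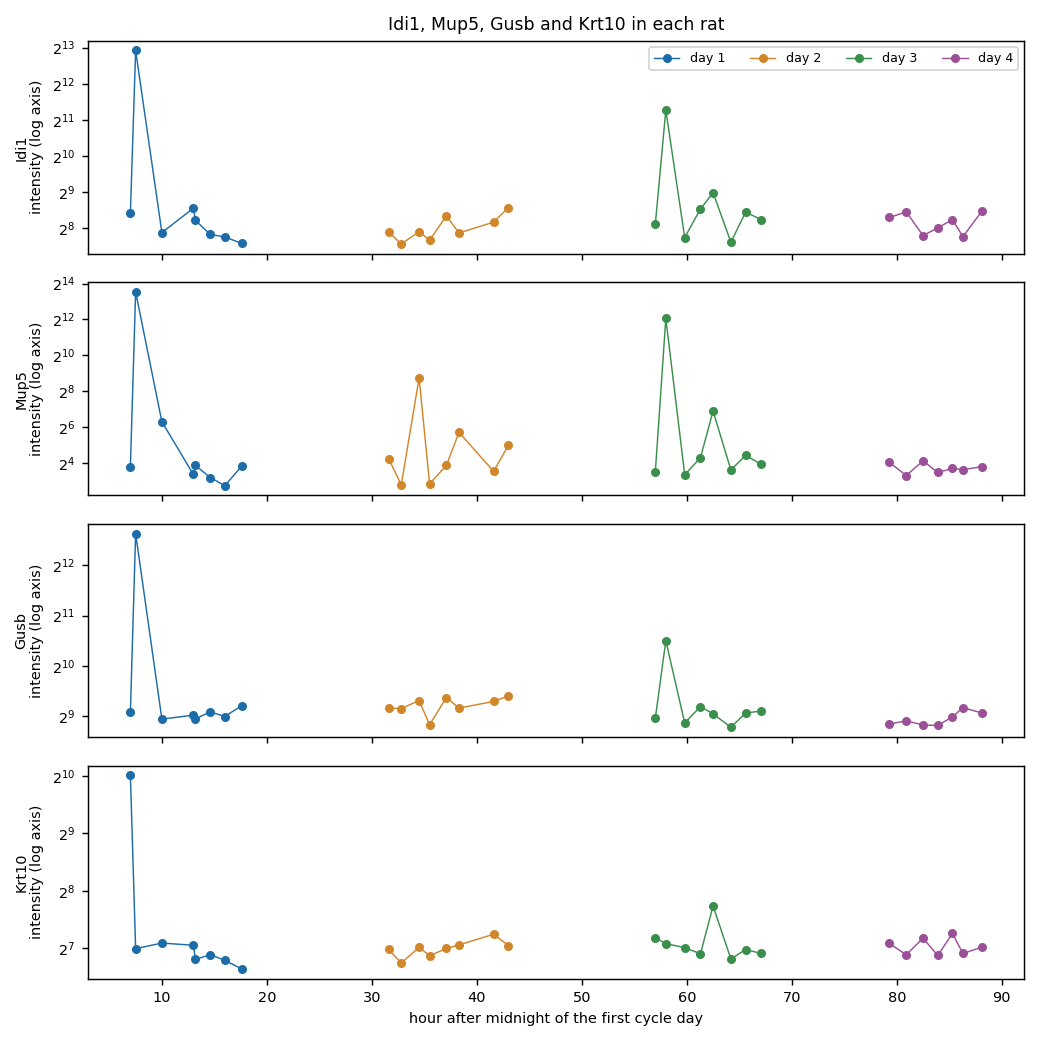
Intensity (log axis) of Idi1, Mup5, Gusb and Krt10 in each of 31 rats by hour after midnight of the first cycle day, joined by lines within a day. Idi1, Mup5 and Gusb peak in the rats of 7.5 and 58 h, and Krt10 peaks in the rat of 7 h at 1033.

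Synthesis enzymes varied together from rat to rat. Over 153 pairs of synthesis enzymes the median Pearson r of log2 intensity over 31 rats was 0.30, and 22.2% of pairs had r over 0.5. Over all 221919778 pairs of probe sets the median was 0.01 and 3.65% had r over 0.5. All points share the same 31 arrays and their scaling, so these values describe the rats and carry no p. The median over synthesis pairs was 0.28 after day and clock hour were taken out, 0.28 without the rats of 7.5 and 58 h, and 0.23 after 4 marker list means were taken out as well. Values over all pairs of probe sets are given only for the 31 rats with nothing taken out.

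Fdps, which makes farnesyl diphosphate, stood at the centre of this group, with r over 0.5 with 9 of the other 17 synthesis enzymes and a median r of 0.53. Cyp51 (median r 0.47), Sqle, the squalene epoxidase (0.46), and Fdft1, the squalene synthase (0.43), came next. Msmo1, the sterol C4 methyl oxidase, and Nsdhl, the dehydrogenase that acts after it, each had r over 0.5 with 6 of 17. Fdps ran from 452 to 888 over the 31 rats, lowest at 59.8 h and highest at 58 h, 2 neighbouring rats of day 3. Idi1 had a median r of 0.29 with the other synthesis enzymes over all rats, and of 0.48 without the rats of 7.5 and 58 h, where 8 of 17 pairs had r over 0.5.

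The pairs with the highest r joined steps both near and far apart in the pathway. Each pair was picked for its r, so its p (permutation test with 100000 resamples, two-sided, adjusted over the other 21067 probe sets against the first gene) is a description. Acat2 and Nsdhl had r = 0.79 and rho = 0.77 (permutation p = 1e-05, adjusted p = 0.00161). Fdps and Cyp51 had r = 0.79 and rho = 0.75 (permutation p = 1e-05, adjusted p = 0.0263), and of all 21067 other probe sets none had a larger absolute r with Fdps than Cyp51. Fdps and Msmo1 had r = 0.78 and rho = 0.79 (permutation p = 1e-05, adjusted p = 0.0263). Sqle and Cyp51 had r = 0.77 and rho = 0.76 (permutation p = 1e-05, adjusted p = 0.00197). A p of 1e-05 is the smallest that 100000 resamples can give. Without the 2 rats farthest from the median of the first gene, r was 0.78, 0.74, 0.75 and 0.74 for these 4 pairs, and within each of the 4 days it lay between 0.62 and 0.99.

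Nsdhl and Insig1 had r = 0.75 and rho = 0.75 (permutation p = 1e-05, adjusted p = 0.000966), and 0.71 without the rats of 58 and 67.1 h. Their r was 0.83, 0.82 and 0.90 within days 1 to 3, and -0.83 over the 7 rats of day 4. Insig1 had a median r of 0.36 with the 18 synthesis enzymes and Insig2 one of 0.05. Between the 2 INSIG genes r was 0.32 and rho 0.35 (permutation p = 0.0824, adjusted p = 0.291). Insig1 ran from 521 to 3072, highest in the rats of 65.6 and 67.1 h and lowest in the rat of 17.6 h, and Insig2 ran from 218 to 322. The adipocyte marker mean had r of 0.72 with Insig1 and 0.64 with Insig2 over 31 rats, and the part of fat content in these values was tested only as far as the residuals: with marker means taken out, r was 0.62 for Nsdhl and Insig1 and -0.08 for the INSIG pair.

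Srebf2 itself ran from 120.1 to 220.2 and had a median r of 0.31 with the synthesis enzymes. Its r with Sqle was 0.35 and rho 0.33 (permutation p = 0.0554, adjusted p = 0.824), and 0.16 without the rats of 34.5 and 82.5 h. With day and hour taken out that r was 0.38, and 0.46 with marker means taken out too. Its highest r with an enzyme were 0.60 with Fdft1 and 0.51 with Fdps. Scap had a median r of 0.29, and Stard4, a cytosolic sterol carrier, one of 0.36, with a highest r of 0.69.

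Promoter sequence was set beside this co-variation. Promoters, 250 bases before and 50 bases after the start, were given for 22 measured members (RefSeq, assembly GRCr8). The NF-Y box (CCAAT, either strand) was in 17 of 22, or 77.3%, beside 37.5% of all 33469 promoters, and the Sp1 box (GGGCGG, either strand) was in 18 of 22, or 81.8%, beside 33.1%. These promoters were richer in G and C, with a median of 63.2% beside 51.7%. Of the sterol element only the string TCACNCCAC was searched, on both strands, and it was in 0 of 22 and in 1.12% of all. The LXR element known as DR4, searched without mismatch on both strands, was in 0 of 22 and in 2 of all 33469 promoters (0.00598%). Strings this rare are missing from most sets of 22 promoters. Variants of either element were not searched, so neither count shows that an element is absent. The E-box CACGTG was in 4 of 22 (Abca1, Insig1, Sc5d and Scap) and in 6.42% of all. A match is a string of letters and not a shown binding site.

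The 150 bases from 180 to 31 before the start are shown for 4 synthesis enzymes that moved together and for the exporter Abca1, 5′ to 3′ on the strand of the gene, with CCAAT or its reverse complement in capitals. In GRCr8 they lie at chr2:176804847-176804996 (minus strand) for Fdps, chr16:29746933-29747082 (plus strand) for Msmo1, chrX:155817180-155817329 (plus strand) for Nsdhl, chr4:30991513-30991662 (plus strand) for Cyp51 and chr5:72596504-72596653 (minus strand) for Abca1. Fdps holds 2 boxes in this stretch, Msmo1 holds 3 and Nsdhl holds 4. Cyp51, which followed Fdps most closely, and Abca1 hold 0.
Fdps: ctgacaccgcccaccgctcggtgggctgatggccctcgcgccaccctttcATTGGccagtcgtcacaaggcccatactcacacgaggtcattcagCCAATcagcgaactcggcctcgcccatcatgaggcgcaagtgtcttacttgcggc
Msmo1: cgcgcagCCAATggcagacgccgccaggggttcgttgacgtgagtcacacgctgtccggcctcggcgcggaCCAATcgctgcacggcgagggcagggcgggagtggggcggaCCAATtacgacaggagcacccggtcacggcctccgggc
Nsdhl: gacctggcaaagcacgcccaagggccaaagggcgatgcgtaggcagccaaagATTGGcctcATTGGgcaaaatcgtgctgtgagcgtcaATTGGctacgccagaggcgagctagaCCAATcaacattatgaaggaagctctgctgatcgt
Cyp51: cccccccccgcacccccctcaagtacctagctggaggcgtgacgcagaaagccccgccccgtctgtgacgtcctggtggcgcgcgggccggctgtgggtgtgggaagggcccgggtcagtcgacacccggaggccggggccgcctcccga
Abca1: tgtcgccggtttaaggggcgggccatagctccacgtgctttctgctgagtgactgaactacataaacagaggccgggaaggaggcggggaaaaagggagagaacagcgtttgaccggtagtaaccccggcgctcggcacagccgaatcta

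Dhcr7 and Ggps1 did not follow the other synthesis enzymes. The median r with the other 17 was -0.11 for Dhcr7 and -0.07 for Ggps1, while the other 16 enzymes had medians of 0.17 to 0.53. Between themselves they had r = 0.60. Dhcr7 had r = 0.63 and rho = 0.67 with the exporter Abca1 (permutation p = 0.00014, adjusted p = 0.0127), a pair added after its value was seen, and 0.55 without the rats of 59.8 and 86.3 h. With Fdps its r was -0.29 and rho -0.20 (permutation p = 0.111, adjusted p = 0.323). With day and clock hour taken out the r of Dhcr7 and Fdps was -0.55, and -0.375 with marker means taken out too. Within days 1 to 4 it was -0.18, -0.33, -0.76 and -0.44. The rats of 59.8, 86.3, 57 and 64.2 h were highest in Dhcr7, at 1605, 1201, 1072 and 1023, and Fdps read 452, 619, 496 and 468 in them, beside a median of 599.8 over 31 rats. The beta-actin 3′ over 5′ ratio, a sign of RNA integrity, had r of 0.47 with Dhcr7, 0.56 with Ggps1 and 0.53 with Abca1, and its part in these values was not tested.

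**Figure D4:**
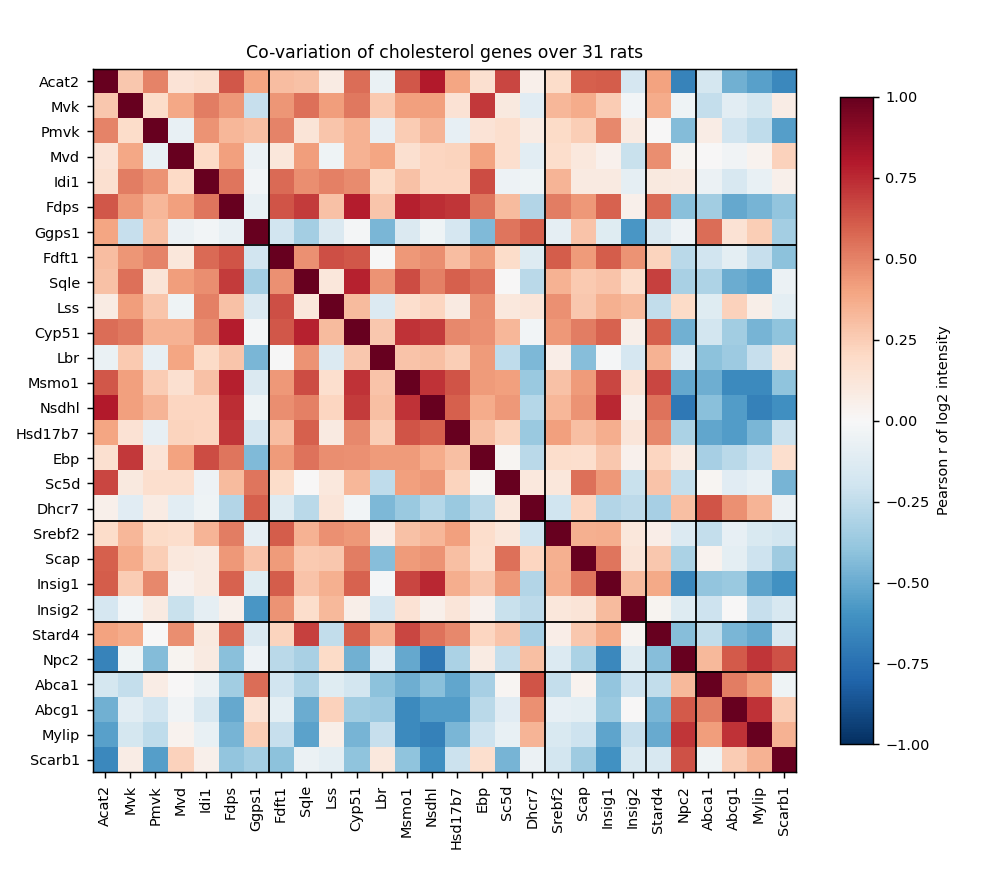
Pearson r of log2 intensity over 31 rats between each pair of 28 cholesterol genes, in order of role with lines between roles. A block of positive r runs through the synthesis enzymes from Acat2 to Ebp with Insig1 and Stard4, with Dhcr7 and Ggps1 outside it, and the rows of Npc2, Abcg1, Mylip and Scarb1 are mostly negative with the block.

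Genes of efflux, HDL exchange and LDL receptor removal tended to run against the synthesis enzymes. Between 18 synthesis enzymes and Abca1, Abcg1, Mylip and Scarb1 the median r was -0.22 over 72 pairs, and 16.7% of pairs had r under -0.5, beside 2.48% of all pairs of probe sets. Taking out day and clock hour gave a median of -0.26, and taking out 4 marker means as well gave -0.11, with 4.17% of pairs under -0.5. The 2.48% is for r with nothing taken out, and no share of all pairs is given for residuals. Abcg1, which hands cholesterol to HDL, ran from 773 to 2081 and had a median r of -0.23 with the enzymes, Mylip one of -0.23 and Scarb1 one of -0.28. Abca1 was more mixed, with r from -0.52 with Hsd17b7 to 0.56 with Ggps1 and 0.63 with Dhcr7.

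The 5 lowest r among members lay between the synthesis side and Npc2, Mylip and Scarb1. Nsdhl had r = -0.72 and rho = -0.68 with Npc2 (permutation p = 2e-05, adjusted p = 0.00144) and r = -0.68 and rho = -0.71 with Mylip (permutation p = 4e-05, adjusted p = 0.00214). Acat2 had r = -0.67 and rho = -0.65 with Npc2 (permutation p = 4e-05, adjusted p = 0.00338) and r = -0.64 and rho = -0.66 with Scarb1 (permutation p = 8e-05, adjusted p = 0.00502). Insig1 had r = -0.64 and rho = -0.54 with Npc2 (permutation p = 0.00012, adjusted p = 0.00559). All 5 stayed between -0.57 and -0.74 without the 2 rats farthest from the median of the first gene. With day, clock hour and marker means taken out they lay between -0.55 and -0.41. Within days 1 to 3 their r ranged from -0.93 to -0.33. On day 4 Insig1 and Npc2 had r = 0.395, and the other pairs lay between -0.73 and -0.32. Mylip had medians of 1646, 1421, 1348 and 1308 over days 1 to 4, within ranges of 1127 to 2045, 1043 to 1659, 1058 to 2091 and 858 to 1532 that overlapped.

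Abca1 and Abcg1 had r = 0.51 and rho = 0.65 (permutation p = 0.0033, adjusted p = 0.0780), and 0.67 without the rats of 59.8 and 65.6 h. Abca1 was highest at 4671 in the rat of 59.8 h and lowest at 462 in the rat of 65.6 h. Its 4 probe sets did not agree on the latter rat: the dimmer ones included readings of 891 and 231 there, inside the range of the other rats, with r of 0.50 and 0.53 with the chosen one. The last read 249.8 there, its lowest value, with r of 0.90. Abcg1 and Mylip had r = 0.73 and rho = 0.72 (permutation p = 2e-05, adjusted p = 0.00514), a pair added after its value was seen, and 0.66 without the rats of 62.5 and 64.2 h.

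In each rat the mean of the 18 synthesis enzymes was set beside that of Abca1 and Abcg1, each gene centred on its mean. The 2 means had r = -0.32 and rho = -0.35 over 31 rats, and r of -0.25, -0.39, -0.57 and -0.42 within days 1 to 4, given with no test since the members were chosen. The difference of synthesis and efflux was 1.22 in the rat of 65.6 h and 0.81 in that of 62.5 h, and -1.01 in the rat of 64.2 h and -0.87 in that of 59.8 h. All 4 are rats of day 3, whose differences spanned a wider range (SD 0.82) than those of day 1 (SD 0.47), day 2 (SD 0.39) and day 4 (SD 0.45). The difference in the rat of 65.6 h rests in part on the Abca1 probe set that read 462. Over days 1 to 4 the synthesis mean was -0.01 ± 0.20, -0.12 ± 0.15, 0.10 ± 0.22 and 0.03 ± 0.12 (SD, n = 8, 8, 8 and 7), and the ranges of all 4 days overlapped.

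**Figure D5:**
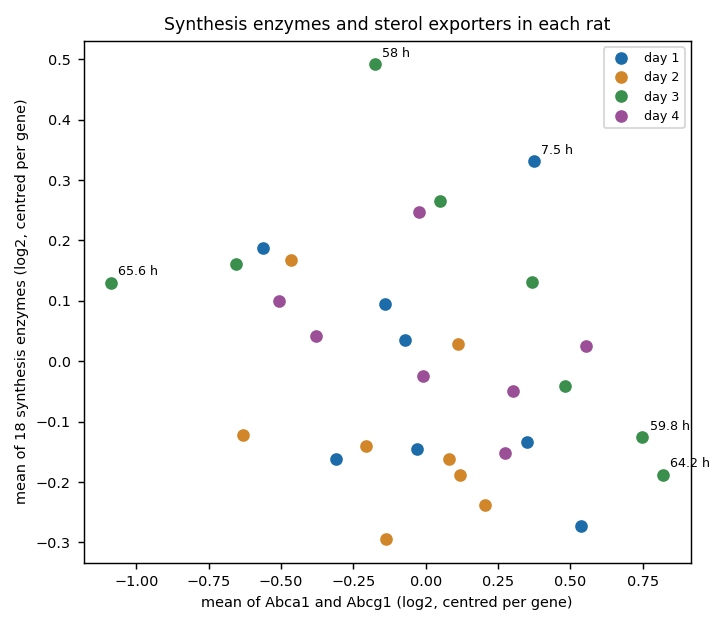
Mean of 18 synthesis enzymes against the mean of Abca1 and Abcg1 in each of 31 rats (log2, centred per gene), coloured by cycle day. The rats of 64.2 and 59.8 h lie at the lower right, the rat of 65.6 h lies at the far left, and the rats of 58 and 7.5 h, high in Idi1, lie at the top.

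Marker lists moved with the same axis. The luminal marker mean had r of 0.78 with Mylip, 0.62 with Abcg1, 0.51 with Npc2, 0.58 with the Abca1 and Abcg1 mean and -0.36 with the synthesis mean over 31 rats. The adipocyte marker mean had r of -0.46 with the Abca1 and Abcg1 mean and 0.13 with the synthesis mean. The mean of 13 fatty acid synthesis genes had r of 0.70 with the synthesis mean, 0.91 with Nsdhl and 0.80 with Acat2. These are descriptions over the same arrays, and the part of cell mixture was measured only through the residual values given above.

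Other genes of the sterol pathway, 27 of 35 listed, and 13 of 14 fatty acid synthesis genes were fitted in the same way. Of the sterol list 2 genes rose along the clock hour, beside 1.21% of probe sets that rose. Star, which carries cholesterol into mitochondria for steroid synthesis, ran from 59.8 to 434 in the 17 rats after noon (median 167), against 23.2 to 176 in the 14 rats before noon (median 67.2), a slope of 2.05 per 10 h (SE 0.36, limma adjusted p = 0.000786). Aacs, which activates acetoacetate for sterol synthesis, ran from 69.8 to 300.2 in the rats after noon (median 125), against 64.3 to 159 in the rats before noon (median 87.2), a slope of 0.93 (SE 0.21, limma adjusted p = 0.0111). Of the fatty acid list 1 gene rose, Srebf1, which encodes SREBP-1, with 757 to 2221 in the rats after noon (median 1307), against 614 to 1655 in the rats before noon (median 972), a slope of 0.77 (SE 0.18, limma adjusted p = 0.0154). The groups overlapped for all 3 genes. Adipocyte markers leaned the same way along the hour, with 3 of 12 higher, and the mean of that list ran from -0.45 to 0.77 in the rats after noon, against -0.52 to 0.13 in the rats before noon. The part of fat content in these slopes was not tested.

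Between days, 2 genes of the sterol list fell on day 3 against day 1, beside 0.721% of probe sets that fell. Nceh1, a hydrolase that frees stored cholesterol from its esters, read 77.5 to 139 on day 3 (median 101), against 114 to 326 on day 1 (median 252), and its log2 change was -1.15 (SE 0.22, limma adjusted p = 0.00663). Against day 2, where it read 105 to 370.5 (median 229.8), its change was -0.99 (SE 0.22, limma adjusted p = 0.0430), beside 0.204% of probe sets that fell. Apoe, the apolipoprotein that macrophages and fat release with cholesterol, read 10569 to 14228.5 on day 3 (median 12194), against 13803 to 16594 on day 1 (median 14557), a log2 change of -0.26 (SE 0.06, limma adjusted p = 0.0328). Both pairs of groups overlapped. Macrophage markers were lower on day 3 too, with 9 of 11 at an unadjusted p under 0.05. Of all 21068 probe sets 1574 were lower at that p on day 3 against day 1. Of the markers 1 passed the adjusted threshold, and their mean ran from -0.63 to 0.17 on day 3, against -0.01 to 0.44 on day 1. The part of macrophage content in Nceh1 and Apoe was not tested.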

How the data were processed

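Total RNA of 32 rat mammary glands was hybridised to Affymetrix rat arrays, 1 array per rat. Per the labels, the deposited values are intensities on a linear scale that the authors obtained with GC-RMA, which corrects background by probe sequence and sets all arrays to a common distribution. Probes differ in affinity, so levels of different probe sets were not compared. Values ran from 2.22 to 37317. The array of 40 h was left out, as in the study's methods. Of 31099 probe sets (57 control probe sets aside), 21068 had 10 or more on all 31 arrays. In the platform annotation, 1 gene symbol was given for 20832 probe sets, several for 436 and none for 9780.

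Log2 intensities were fitted with limma 3.58.1 (R 4.3.3) on cycle day and clock hour, centred on the middle of the sampled hours, with Benjamini-Hochberg adjustment over all probe sets. The pipeline was tested on simulated data. Method 1 used a spline of order 2 with 8 basis functions. Correlations used numpy 2.4.6 and scipy 1.17.1, and their p-values were adjusted over all probe sets in place of the member pairs planned. The number of arrays limits precision. Every measured member was named with its range, and, as few passed, the 3 members with the largest and the 2 with the smallest change in a comparison in full. Members at an unadjusted p under 0.05 were added after their values were seen. Pairs named were the 5 of highest and 5 of lowest r and 3 chosen for their roles, and of other lists the genes past the threshold. Members and lists were chosen with earlier results of these data known. Alternatives were other filters, a pseudocount of 16, quantile normalization, array weights, trend and robust variance, a squared hour term, marker covariates, the mean of a gene's probe sets, all 32 arrays and leaving out rats.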

Additional observations from a re-analysis of the deposited data

Results flagged for a closer look

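In 7 of 112 groups of a gene and a day, or 6.25%, 1 rat stood far from the others of its day. The cutoff is meant to flag about 1 in 20 groups of independent, normally spread values. All genes share the same rats, so the groups are not independent. No share over all probe sets is given, so the count is only a description. The measure was Dixon's ratio of log2 intensities (the gap to the nearest rat over the whole range), while the intensities given are linear. Idi1 had a ratio of 0.817 on day 1, from the rat of 7.5 h (7772, others 191 to 376), and of 0.624 on day 3, from the rat of 58 h (2474, others 196 to 508). Lss had 0.603 on day 1, from the rat of 7.5 h (263, others 173 to 205). Hsd17b7 had 0.725 on day 1, from the rat of 7 h (153, others 60.6 to 78.2). Msmo1 had 0.538 on day 2, from the rat of 43 h (383, others 214 to 280.3). Npc2 had 0.682 on day 4, from the rat of 86.3 h (5604, others 4160 to 4574). Mylip had 0.615 on day 4, where the rat of 79.3 h was lowest (858, others 1225 to 1532).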

How the results depend on the processing

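Of 348 counts of members past limma's adjusted threshold, 1 for each comparison and alternative, 345 were 0. With array weights 1 member passed for day 3 against day 2 (Dhcr7, 0.82, adjusted p = 0.0323) and 1 for any day difference (Dhcr7, F = 7.42, adjusted p = 0.0452), beside 1.85% and 1.83% of all probe sets, and with the mean of a gene's probe sets 1 passed for day 3 against day 2 (Scarb1), beside 0.401% of 11211 genes. The count of Method 1 was 2, beside 1908 calls over all probe sets. It was 0 with a spline of order 3, a false discovery rate of 0.05 or 0.1, or no filter. Calls over all probe sets fell in these runs as well, to 844, 373, 696 and 1424. The count of members was 4 without the rats of 7.5 and 58 h (Acat2, Hsd17b7, Scap and Scarb1, beside 14.4% of all probe sets), an alternative chosen after seeing the data. Leaving out each rat in turn gave 0 to 4 by Method 1, 0 in every limma comparison, and a median r of 0.26 to 0.33 between synthesis enzymes. Idi1 changed sign with the rats of highest values. Its clock hour slope was 0.089 without the rats of 7.5 and 58 h and 0.20 without the rats of 7, 7.5 and 58 h. Its change on day 4 against day 1 ranged from -0.70 to 0.080 when each rat was left out in turn, positive only without the rat of 7.5 h. It was 0.13 without those of 7.5 and 58 h and 0.22 without those of 7, 7.5 and 58 h, and its change on day 2 against day 1 was 0.053 without all 3. The cause was not tested. Apart from runs without 1 rat, 465 values for single genes kept their direction and side of the threshold, the 5 of Idi1 above were reversed, the 2 of Dhcr7 came past the threshold and 3 small ones moved (Insig2 on day 4 against day 2, -0.04 with the mean of its probe sets, and the clock hour slope of Lss, 0.13 and 0.16 without the 2 or 3 rats). No paired analysis was possible because each rat was sampled once and the labels give no replicate numbers shared between days. Each time point had 1 rat, so a value at a single hour has no replicate.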

Other observations

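The array of 40 h on day 2, left out of every comparison, lay within the range of the other 31 rats for 25 of 28 members. It lay below that range for 3, with Dhcr7 at 256 (others 403 to 1605), Ebp at 165.6 (others 165.7 to 284) and Npc2 at 4138 (others 4160 to 6669), and above it for 0.

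Outside the pathway, the genes whose level followed the mean of the 18 synthesis enzymes most closely over 31 rats, picked by r and so given as a description, were Dsp, a desmosome protein (r = 0.84), Mpc2, a subunit of the mitochondrial pyruvate carrier (0.75), Cst6, a cystatin of skin (0.74), and Hspd1, the mitochondrial chaperonin (0.72). Cst6 read 540 and 389 in the rats of 7.5 and 58 h, against 51.8 to 160.0 in the other 28 rats when the rat of 7 h is set aside. The synthesis mean includes Idi1, which was high in the same 2 rats, and these r are not given without them. Of all probe sets 428, or 2.03%, had r over 0.5 with the synthesis mean.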
